A study of Mus musculus with 6 samples.

Results

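The mitochondrial ribosomal protein genes were taken by name, as every entry of the expression table whose symbol is Mrpl or Mrps with a number and at most 1 further letter. This gave 76 of the 21761 genes of the table by a rule that uses names alone. Of the 76, 26 encode proteins of the small ribosomal subunit and 49 proteins of the large subunit, with Mrps18a and Mrps30 counted in the large subunit, where structures of the mammalian particle place them. Mrps36 carries the name but is known as a component of the 2-oxoglutarate dehydrogenase complex, and it was kept apart from both subunits.

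The libraries came from bone marrow of male C57BL/6J mice at 3 times of a culture with Flt3L, the growth factor that drives dendritic cell development, supplied as supernatant of a transfected SP2/0 line. Fresh marrow was the day 0 group (replicates II and III). The day 4 group (replicates I and II) was titled CMP, for common myeloid progenitor, and the day 7 group (replicates III and IV) BMDC, for bone-marrow derived dendritic cell. The labels for days 4 and 7 say that all live cells were taken, so each library is a mixture, and they do not state ages or whether the replicates of a day came from different mice or dishes. The p-values below therefore refer to the spread between these libraries, which may be technical.

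Mitochondria keep their own ribosome, which translates the few membrane proteins of the respiratory chain that mitochondrial DNA encodes. Its RNAs are mitochondrial transcripts, while all of its proteins are encoded in the nucleus, made in the cytosol and imported. About the core inherited from bacteria the mammalian particle has gained proteins found in mitochondria alone, and Nrf1, the ETS family factor GABP and Yy1 are known as nuclear factors that bind promoters of many mitochondrial genes.

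Promoters of 6 members are shown because they carry the letters of those factors' motifs in different numbers, or none, and belong to members that differed in their course over the culture. Each runs from 250 bases before to 50 bases after the RefSeq transcription start (GRCm38.p6), 5′ to 3′ on the gene's own strand. Capitals mark exact matches, on either strand, to GCGC and TGCGC with any base between them (NRF1), CCGGAAG (ETS or GABP) or AAGATGGC (YY1). The windows are chr14:54426659-54426958 on the plus strand for Mrpl52, chr3:95871465-95871764 on the minus strand for Mrps21, chr11:120484387-120484686 on the plus strand for Mrpl12, chr7:78782881-78783180 on the plus strand for Mrps11, chr7:28741772-28742071 on the minus strand for Mrps12 and chr5:96209865-96210164 on the plus strand for Mrpl1.
Mrpl52: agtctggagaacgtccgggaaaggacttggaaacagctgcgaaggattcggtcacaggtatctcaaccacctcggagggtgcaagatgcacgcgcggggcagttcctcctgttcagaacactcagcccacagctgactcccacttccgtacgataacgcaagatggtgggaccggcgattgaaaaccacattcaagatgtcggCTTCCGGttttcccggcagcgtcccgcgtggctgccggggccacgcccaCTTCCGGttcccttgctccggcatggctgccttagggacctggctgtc
Mrps21: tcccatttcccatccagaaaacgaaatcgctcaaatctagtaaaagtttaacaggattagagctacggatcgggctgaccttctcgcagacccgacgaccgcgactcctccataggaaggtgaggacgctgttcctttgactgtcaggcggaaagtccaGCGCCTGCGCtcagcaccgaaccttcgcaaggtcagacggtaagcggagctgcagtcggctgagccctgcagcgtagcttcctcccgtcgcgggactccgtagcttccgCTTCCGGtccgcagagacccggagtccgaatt
Mrpl12: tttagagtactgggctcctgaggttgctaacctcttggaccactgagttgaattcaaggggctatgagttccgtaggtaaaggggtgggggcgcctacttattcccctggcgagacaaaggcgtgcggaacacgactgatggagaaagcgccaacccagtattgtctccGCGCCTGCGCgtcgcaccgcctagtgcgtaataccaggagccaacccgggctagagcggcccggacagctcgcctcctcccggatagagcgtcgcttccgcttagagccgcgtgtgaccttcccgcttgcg
Mrps11: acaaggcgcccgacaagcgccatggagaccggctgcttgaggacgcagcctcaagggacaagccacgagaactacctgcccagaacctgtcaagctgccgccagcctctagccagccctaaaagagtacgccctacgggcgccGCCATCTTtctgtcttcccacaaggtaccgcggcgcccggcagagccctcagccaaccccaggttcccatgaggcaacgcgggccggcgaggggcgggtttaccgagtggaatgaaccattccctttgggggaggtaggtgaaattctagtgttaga
Mrps12: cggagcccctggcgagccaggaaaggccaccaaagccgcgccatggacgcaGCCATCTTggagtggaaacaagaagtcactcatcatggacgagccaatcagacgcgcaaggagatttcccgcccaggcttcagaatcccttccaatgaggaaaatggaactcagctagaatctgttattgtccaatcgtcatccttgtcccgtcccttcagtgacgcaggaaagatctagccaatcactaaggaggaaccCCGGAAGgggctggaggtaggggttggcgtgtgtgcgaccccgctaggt
Mrpl1: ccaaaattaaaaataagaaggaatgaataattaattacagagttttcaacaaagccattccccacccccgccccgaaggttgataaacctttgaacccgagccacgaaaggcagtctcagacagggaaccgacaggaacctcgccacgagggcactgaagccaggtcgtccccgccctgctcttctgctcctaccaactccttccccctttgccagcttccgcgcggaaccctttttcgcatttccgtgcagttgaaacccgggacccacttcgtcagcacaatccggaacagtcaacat
Mrpl52 held the ETS or GABP letters at -47 and 3, counted from the start as base 1, both times as CTTCCGG. Mrps21 and Mrpl12 each held GCGCCTGCGC, at -91 and -81. Mrps21 and Mrps12 also held the ETS or GABP letters just after the start, at 19 and 2. The YY1 letters, as GCCATCTT, were at -107 in Mrps11 and at -199 in Mrps12. The Mrpl1 window held none of these letters, which says only that they are not in this window.

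Such letters were found in a larger share of the members' windows than of the windows of all tested genes, a description without a test. RefSeq windows were matched for 67 of the 76 members, 73 windows in all, and 18522 windows belonged to tested genes. The NRF1 letters were in 17.8% of member windows and in 7.25% of the windows of tested genes, those of ETS or GABP in 32.9% and 12.7%, and those of YY1 in 16.4% and 3.38%. At least 1 of the 3 motifs was in 56.2% of member windows and in 20.9% of those of tested genes. Other core promoter letters were near the share of tested genes, with GGGCGG in 53.4% against 50.4%, CCAAT in 39.7% against 37.8%, and CACGTG in 9.59% against 8.49%. TATAAA was in 6.85% against 11.1%. The motif letters were chosen after several spellings had been counted, and a match is a description of the sequence, not a binding site.

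Depth differed by day and bears on every value below. Total reads in genes were 322837 and 157797 on day 0, 1365635 and 3852628 on day 4, and 16149088 and 10951745 on day 7. A background measure was taken from 1449 sensory receptor genes (odorant, vomeronasal, trace amine), which stood at a pooled 8.71 and 8.29 RPKM (reads scaled by gene length and library total) on day 0, at 4.33 and 0.846 RPKM on day 4, and at 0.0218 and 0.0236 RPKM on day 7. Cell type markers changed with the days as well. The summed level of 7 red cell markers was 78962 and 39374 RPKM on day 0, 3714 and 4000 RPKM on day 4, and 23.3 and 44.3 RPKM on day 7, with Alas2 and Slc4a1 at 0 in both day 7 libraries. The 10 neutrophil markers summed to 7890 to 63206 RPKM over the day 0 and day 4 libraries and to 175 and 167 RPKM on day 7, with Mpo and Prtn3 at 0. The 9 macrophage markers summed to between 105 and 231 RPKM before day 7 and to 11206 and 12006 RPKM on day 7, with C1qb at 1634 and 1813 RPKM. The 8 conventional dendritic cell markers summed to 39.5 and 55.0 RPKM on day 7, within their range of 16.2 to 56.2 RPKM on the earlier days, and Zbtb46, which defines that lineage, was at 0.0288 and 0.0283 RPKM. Of the same markers Itgax was at 24.7 and 25.9 RPKM, above its 0 to 6.40 RPKM on the earlier days, and Cd209a at 11.8 and 21.5 RPKM, which overlap its 5.33 to 18.2 RPKM on those days. The 6 plasmacytoid dendritic cell markers summed to 18.6 to 73.0 RPKM on the earlier days and to 629 and 732 RPKM on day 7, of which Bst2 made up 613 and 714 RPKM. The 6 basophil and mast cell markers summed to 157 and 78.8 RPKM on day 0, 545 and 908 RPKM on day 4, and 1.41 and 0 RPKM on day 7. The 6 myeloid progenitor markers summed to 90.2 and 121 RPKM on day 4, against 199 and 100.0 RPKM on day 0. The groups are called by their day. The part of these shifts in cell type, depth and background in the results below was not tested.

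As a group, the members made up a larger share of the reads on day 7 than on either earlier day. Their share of reads was 0.129% (95% interval 0.117 to 0.142 by the exact Clopper-Pearson method) and 0.107% (0.0916 to 0.125) on day 0, 0.139% (0.133 to 0.146) and 0.141% (0.138 to 0.145) on day 4, and 0.402% (0.399 to 0.405) and 0.459% (0.455 to 0.463) on day 7. These intervals cover counting error only, since PCR copies are not independent molecules. The 2 day 4 shares lay close to the day 0 shares, and both day 7 shares were above all 4 others. The median member level was 9.01 and 7.72 RPKM on day 0, 9.98 and 9.33 RPKM on day 4, and 28.7 and 30.3 RPKM on day 7. In bulk RNA of a mixture, more cells of a type and more RNA per cell cannot be told apart.

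On day 0 the pooled level of the members was close to that of the receptor genes, while their medians were apart. Their reads pooled over all 76 gave 8.84 and 7.31 RPKM in the day 0 libraries, beside the 8.71 and 8.29 RPKM of the receptor genes. The median receptor gene was at 3.11 and 2.47 RPKM, below the 9.01 and 7.72 RPKM of the median member. The median member had 4 reads in day 0 library II and 2 reads in library III, and 2 and 10 members had none. Of the 76 members 50 and 20 lay above the 90th percentile of single receptor genes on day 0, 53 and 74 on day 4, and all 76 in both day 7 libraries. That percentile was 6.67 and 13.3 RPKM on day 0, 6.26 and 1.37 RPKM on day 4, and 0 in both day 7 libraries. The day 7 count therefore says only that every member had reads. The median member had 21 and 56 reads on day 4 and 776.5 and 543 reads on day 7. Pearson's r of log2(RPKM + 1) across the 76 members was 0.446 for the pair from day 0, 0.854 for the pair from day 4 and 0.954 for the pair from day 7, a description across genes that share their libraries.

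**Figure D1:**
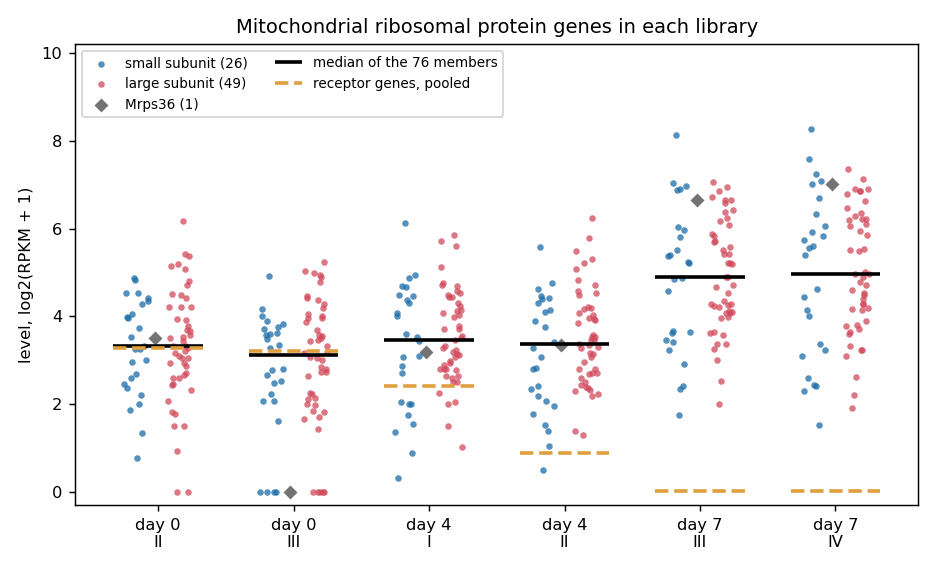
Level of every member, as log2(RPKM + 1), in each of the 6 libraries, 1 point per gene, with black bars at the median of the 76 members and dashed bars at the pooled level of the receptor genes. The dashed bars lie close to the member medians on day 0 and near 0 on day 7, where the member medians were 28.7 and 30.3 RPKM.

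The order of the members by level changed between days. On day 0 the highest mean levels were those of Mrpl18, a protein of the central protuberance (45.4 ± 36.2 RPKM, mean ± SD, n = 2 libraries here and below), Mrpl20 (35.3 ± 9.43 RPKM) and Mrpl28 (33.1 ± 3.08 RPKM), neighbours that did not differ beyond their spread. On day 4 Mrps21, a small protein of the small subunit (58.1 ± 15.5 RPKM), Mrpl18 (55.7 ± 2.22 RPKM) and Mrpl45 (49.8 ± 35.5 RPKM) came first and likewise overlapped. On day 7 Mrps21 stood apart at 291 ± 19.5 RPKM, and Mrps33 (161 ± 41.9 RPKM), Mrpl36 (148 ± 21.6 RPKM) and Mrps14 (135 ± 23.5 RPKM) followed without clear gaps. These levels are per gene length, and whether that scaling makes genes of different length comparable was not tested. The small subunit's pooled RPKM was 0.809 and 0.874 of the large subunit's on day 0, 0.846 and 0.647 on day 4, and 1.13 and 1.24 on day 7. These ratios were not tested, and Mrps14 and Mrps33, picked after their values were seen, gave 27.0% and 30.2% of the small subunit reads on day 7, beside 3.85% to 20.4% in the other libraries.

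Day 7 was compared with day 4 for the last step of the culture, and most members were higher on day 7. The median log2 fold change of the 76 members was 1.40, beside -0.81 for all 19279 genes tested, and 73 members lay above 0. By limma on log2(RPKM + 1), 22 members rose at a Benjamini-Hochberg adjusted p under 0.05, and 5.85% of all tested genes did. By limma 0 fell (also 0 at an unadjusted p under 0.05, and 1 by voom, limma's weighting of recovered reads, which called 0 after adjustment), beside 6.75% of tested genes. Both day 7 libraries were above both day 4 libraries in 68 members, beside 19.6% of tested genes, and below them in 0, beside 57.6%. At an unadjusted p under 0.05, 49 members were higher. Fold changes on this scale understate those of genes with low values.

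The count of calls depended on which libraries were fitted. Without day 4 library I or without day 4 library II, limma called 0 members higher, with 33 and 26 higher at an unadjusted p under 0.05. It called 12 without day 7 library III, 4 without day 7 library IV, and 54 when day 0 library II was left out and again when III was. The members' median log2 fold change kept within 1.35 to 1.48 over these 6 fits, and that of all tested genes within -1.11 to -0.36. With quantile normalization 4 members were called and with voom 50. Quantile normalization moved the median of all tested genes from -0.81 to 0.04 and left the members' median at 1.24. The shares of all tested genes called in these fits are not given here, so the member counts have no background beside them.

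Among the called members Mrpl52, a large subunit protein without a bacterial counterpart, had the largest change. It stood at 17.6 and 9.0 RPKM on day 0, at 1.04 and 3.69 RPKM on day 4, and at 85.3 and 119 RPKM on day 7. Both day 4 libraries were the lowest of the 6 and both day 7 libraries the highest. The log2 fold change from day 4 to day 7 was 5.04 ± 0.53 (± SE here and below, limma adjusted p = 0.00102, and 0.0754 and 0.0641 without day 4 library I or II), on 11 pooled reads on day 4 and a ratio of pooled levels of 33 (exact 95% interval 18.4 to 66.2). Its fall from day 0 to day 4 did not pass the test (-2.14 ± 0.53, adjusted p = 0.0542). Its promoter is the one above with CTTCCGG on either side of the start.

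Mrps36, the dehydrogenase component, had the next largest rise. Its levels were 10.3 and 0 RPKM on day 0, 8.15 and 9.25 RPKM on day 4, and 100 and 128 RPKM on day 7. The day 7 libraries stood far above the other 4, which overlapped. The log2 fold change from day 4 to day 7 was 3.56 ± 0.94 (limma adjusted p = 0.0436). Its spread was estimated over all 3 days, with the day 0 pair at 10.3 and 0 RPKM. With days 4 and 7 alone in the fit, limma adjusted p was 0.000149. The call was lost when either day 4 library or either day 7 library was left out, with log2 fold changes of 3.38 to 3.74. Over all alternatives 9 kept the call and 8 did not.

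Mrpl23, Mrpl27 and Mrps33 followed. Mrpl23, at the exit of the tunnel through which the new chain leaves the large subunit, measured 5.32 and 10.9 RPKM on day 0, 10.1 and 8.03 RPKM on day 4, and 82.2 and 80.8 RPKM on day 7. Days 0 and 4 overlapped, and the rise to day 7 was 3.05 ± 0.42 on the log2 scale (limma adjusted p = 0.00334). Mrpl27, homologue of a bacterial protein that reaches towards the peptidyl transferase centre, measured 12.7 and 17.4 RPKM on day 0, 12.04 and 9.96 RPKM on day 4, and 66.2 and 97.9 RPKM on day 7. Its day 7 level was above all other libraries, with a log2 fold change of 2.77 ± 0.39 from day 4 (adjusted p = 0.00356). Mrps33, a small subunit protein without a bacterial counterpart, went from 10.5 and 5.39 RPKM on day 0 to 24.9 and 23.8 RPKM on day 4 and 131 and 190 RPKM on day 7. It was ordered by day without overlap, and its log2 fold change from day 4 to day 7 was 2.65 ± 0.42 (adjusted p = 0.00617). For Mrpl23, Mrpl27 and Mrps33 adjusted p was 0.0668 to 0.111 when 1 day 4 library was left out, and for Mrps33 it was 0.0557 without day 7 library IV.

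The stalk of the large subunit, with Mrpl11 at its base, recruits translation factors. Mrpl12, the stalk protein itself, stood at 32.6 and 26.7 RPKM on day 0, 8.49 and 17.2 RPKM on day 4, and 74.8 and 73.4 RPKM on day 7. Day 4 was the lowest and day 7 the highest in every library, and the rise from day 4 to day 7 was 2.51 ± 0.42 on the log2 scale (limma adjusted p = 0.00741; 0.0882 and 0.0641 without day 4 library I or II). Mrpl11 had 3.22 and 2.20 RPKM on day 0, 3.81 and 1.62 RPKM on day 4, and 11.3 and 7.64 RPKM on day 7. Its day 7 libraries were above the rest, but the difference from day 4 did not pass the test (1.54 ± 0.54, adjusted p = 0.103). Whether the 2 genes differ in their change was not tested.

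**Figure D2:**
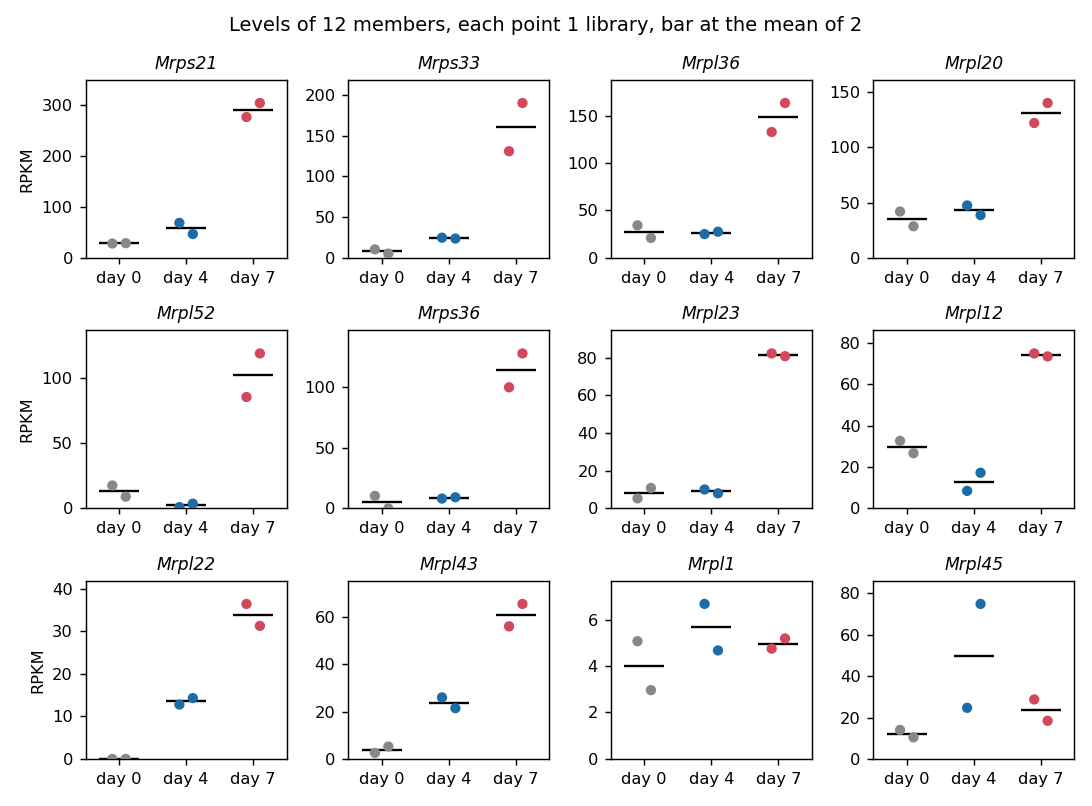
RPKM of 12 members by day, each point 1 library and each bar the mean of 2, with a linear axis from 0 that differs between panels. Mrps21 reached 277 and 305 RPKM on day 7, Mrpl52 and Mrpl12 were lowest on day 4, Mrpl22 had no reads on day 0, and the days overlapped in Mrpl1.

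The members with the highest mean over the days include both called and uncalled ones. Mrps21 measured 28.5 and 29.1 RPKM on day 0, 69.0 and 47.1 RPKM on day 4, and 277 and 305 RPKM on day 7, rising by 2.33 ± 0.38 on the log2 scale from day 4 to day 7 (limma adjusted p = 0.00685). Mrpl36, a small zinc-binding protein of the large subunit, measured 34.3 and 21.1 RPKM on day 0, 25.2 and 27.6 RPKM on day 4, and 133 and 163 RPKM on day 7 (2.44 ± 0.39, adjusted p = 0.00623). Days 0 and 4 overlapped in Mrpl36 and were apart in Mrps21. Mrpl20, whose bacterial homologue acts early in assembly, measured 41.9 and 28.6 RPKM on day 0, 47.3 and 38.6 RPKM on day 4, and 122 and 140 RPKM on day 7 (1.59 ± 0.38, adjusted p = 0.0309). Mrpl18 measured 71.1 and 19.8 RPKM on day 0, 57.3 and 54.1 RPKM on day 4, and 100.0 and 115 RPKM on day 7, and its difference from day 4 did not pass the test (0.93 ± 0.56, adjusted p = 0.286). Mrpl14, an interface protein on which the assembly factor Malsu1 docks, measured 10.4 and 32.0 RPKM on day 0, 51.7 and 44.1 RPKM on day 4, and 104 and 109 RPKM on day 7 (1.14 ± 0.51, adjusted p = 0.180). In all 5 of these genes both day 7 libraries were above both day 4 libraries, beside 68 of the 76 members and 19.6% of all tested genes. A choice by the mean over the 3 days itself favours members that are high on day 7.

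Further members were Mrps12, the 3 paralogs of a bacterial small subunit protein, and Mrps30. Mrps12, of the decoding centre, measured 9.06 and 9.26 RPKM on day 0, 29.98 and 16.7 RPKM on day 4, and 123 and 134 RPKM on day 7, without overlap between days. It rose by 2.47 ± 0.39 on the log2 scale from day 4 to day 7 (limma adjusted p = 0.00628). Mrps18c, the paralog that takes the bacterial position, measured 18.5 and 12.6 RPKM on day 0, 21.2 and 20.5 RPKM on day 4, and 61.2 and 103 RPKM on day 7 (1.88 ± 0.41, adjusted p = 0.0212). Its days did not overlap either. Mrps18b, elsewhere in the small subunit, measured 14.7 and 12.04 RPKM on day 0, 21.6 and 13.8 RPKM on day 4, and 41.5 and 41.2 RPKM on day 7 (1.21 ± 0.38, adjusted p = 0.0770). Mrps18a, in the large subunit, measured 25.1 and 14.7 RPKM on day 0, 18.6 and 15.3 RPKM on day 4, and 41.9 and 45.3 RPKM on day 7 (1.32 ± 0.39, adjusted p = 0.0652). All 3 paralogs had their highest values in both day 7 libraries, and whether they differ in the size of the change was not tested. Mrps30, the other large subunit protein under a small subunit name, measured 17.5 and 7.97 RPKM on day 0, 5.99 and 3.92 RPKM on day 4, and 18.6 and 12.7 RPKM on day 7 (1.48 ± 0.49, adjusted p = 0.0898), so that days 0 and 7 overlapped.

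In 8 members the day 4 and day 7 libraries overlapped, namely Mrpl1, Mrpl10, Mrpl19, Mrpl24, Mrpl44, Mrpl45, Mrpl49 and Mrps27, named here after their values were seen. Mrpl45, which lies at the tunnel exit and contacts the inner membrane, measured 14.0 and 10.4 RPKM on day 0, 24.7 and 74.95 RPKM on day 4, and 28.8 and 18.4 RPKM on day 7. Day 4 library II was far above the other 5, and the log2 fold change from day 4 to day 7 was -0.88 ± 0.55 (limma adjusted p = 0.297). Mrpl1, of the mobile stalk beside the exit site for tRNA, measured 5.07 and 2.96 RPKM on day 0, 6.68 and 4.67 RPKM on day 4, and 4.75 and 5.19 RPKM on day 7. All 3 days overlapped, with a log2 fold change of -0.15 ± 0.49 (adjusted p = 0.820) from day 4 to day 7. Mrpl19, at the face between the subunits, was the third member below 0, at 5.28 and 5.04 RPKM on day 4 and 7.09 and 2.80 RPKM on day 7 (-0.15 ± 0.56, adjusted p = 0.839).

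Each class of member had called genes at the step from day 4 to day 7. Of the 16 small subunit proteins with a bacterial homologue 6 rose, with a median log2 fold change over the class of 1.80. Of the 10 small subunit proteins found in mitochondria alone 3 rose (median 1.31). Among large subunit proteins 9 of the 29 sorted as having a bacterial homologue (median 1.26) rose. So did 3 of the 20 sorted as found in mitochondria alone (median 1.32). Of those 3, Mrpl55 (2.42 ± 0.39, limma adjusted p = 0.00657) does have a bacterial homologue. The counts and medians of these 2 classes hold for the sorting used, with Mrpl55 misplaced. These shares stand beside the 5.85% of all tested genes. Differences between the classes were not tested.

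Members are mostly short genes, and short genes with a mean of 5 RPKM or more were higher on day 7. That mean was taken over the 3 days, so a gene could enter this set through its day 7 level alone. No such limit was set on the members. The median gene length in the table was 1260 bases for members (435 to 7551) and 2966 bases for tested genes. Among members of at most 1000 bases 12 of 22 rose from day 4 to day 7 (54.5%), with a median log2 fold change of 2.35. Of all tested genes of that length averaging 5 RPKM or more 30.3% rose, with a median of 1.48, while without that limit on the mean 11% rose, with a median of -0.98. Above 1000 and up to 2000 bases 8 of 32 members rose (25.0%, median 1.40), beside 20.4% of such genes (median 0.70). Over 2000 bases 2 of 22 members rose (9.09%, median 1.13), beside 9.09% of such genes (median -0.31). Without the limit on the mean, 8.85% of tested genes rose in the middle class (median -0.73) and 4.07% in the longest (median -0.79). Within each length class the members' median was above that of tested genes with or without that limit. In the longest class the shares of calls were equal with it. Spearman's rho between length and this log2 fold change was -0.45 across the 76 members and -0.29 across the 8121 tested genes with that mean, a description across genes measured in the same libraries. The part of gene length in the members' rise was not tested.

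**Figure D3:**
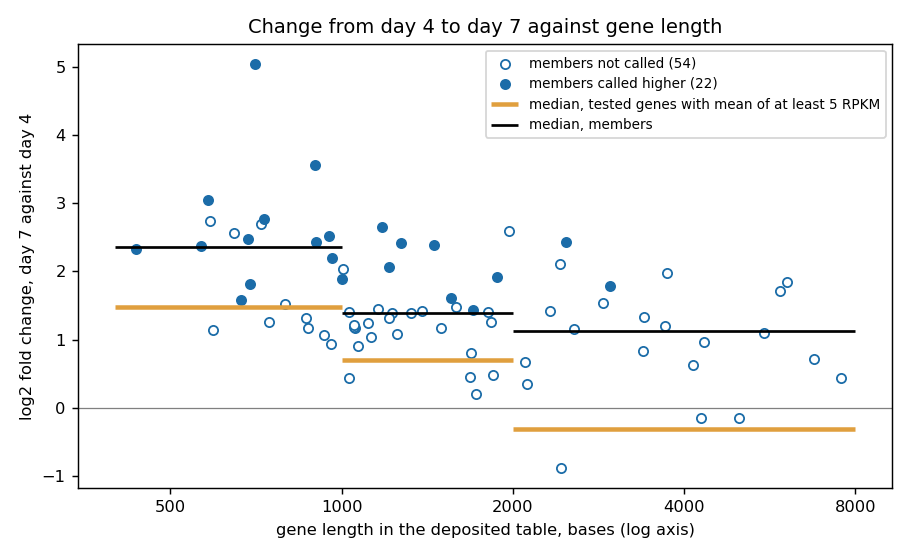
Log2 fold change from day 4 to day 7 of the 76 members against gene length in bases (log axis), filled where the adjusted p was under 0.05, with black bars at the median of members and orange bars at the median of tested genes averaging 5 RPKM or more in each length class. The black bars stand at 2.35, 1.40 and 1.13 and the orange bars at 1.48, 0.70 and -0.31, so both decline with length and the members lie higher in each class. The mean that selects the genes behind the orange bars includes day 7.

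From day 0 to day 4 few members passed the test. The members' median log2 fold change was 0.12, beside -0.40 for all tested genes, and 42 of the 76 lay above 0. By limma 3 rose at an adjusted p under 0.05, beside 3.66% of tested genes, and 0 fell, beside 1.92%. At an unadjusted p under 0.05, 15 were higher and 6 lower. Both day 4 libraries were above both day 0 libraries in 23 members, beside 17.9% of tested genes, and below them in 12, beside 33.3%. After the pooled receptor gene level was subtracted from each library, an alternative chosen after seeing the data, the median was 1.305, beside 0.19 for all tested genes, and 13 members were called higher. Values below 0 were set to 0. The day 0 levels taken off, 8.71 and 8.29 RPKM, were close to the median member at 9.01 and 7.72 RPKM, so this step itself can raise the change from day 0. The 3 that rose had between 0 and 4 pooled reads on day 0, and with voom on the reads 0 members were called, with 2 at an unadjusted p under 0.05. With either day 4 library left out, I or II, limma called 0 higher and 0 lower (7 higher and 1 lower, and 7 higher and 3 lower, at an unadjusted p under 0.05), without day 0 library II 21 higher and 3 lower, and without day 0 library III 7 higher and 5 lower. Without day 7 library III or IV it called 2 higher.

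The 3 called genes were Mrpl22, Mrpl43 and Mrps17. Mrpl22, which lines the exit tunnel, had 0 reads in both day 0 libraries, 12.8 and 14.3 RPKM on day 4 and 36.5 and 31.3 RPKM on day 7. With 3 reads set in place of 0 over the pooled day 0 libraries, its ratio of pooled levels to day 0 was 1.66 on day 4 and 4.10 on day 7. The 3 reads are an assumed floor, so neither ratio is a lower limit. Against day 0, limma adjusted p was 0.00721 on day 4 and 0.000375 on day 7. Mrpl43, a large subunit protein found in mitochondria alone, measured 2.55 and 5.22 RPKM on day 0, 1 read in each, 25.96 and 21.4 RPKM on day 4, and 56.0 and 65.4 RPKM on day 7. The days did not overlap, and the ratio of pooled levels from day 0 to day 4 was 6.59 (exact 95% interval 1.79 to 54.9, limma adjusted p = 0.0209). Mrps17, an RNA-binding protein of the small subunit, measured 5.46 and 3.73 RPKM on day 0, 19.8 and 20.1 RPKM on day 4, and 64.6 and 47.9 RPKM on day 7. Its log2 fold change was 1.92 ± 0.38 from day 0 to day 4 (adjusted p = 0.0303) and 1.43 ± 0.38 from day 4 to day 7 (adjusted p = 0.0451). Without day 4 library I, adjusted p for day 4 against day 0 was 0.0513 for Mrpl22, 0.0640 for Mrpl43 and 0.0629 for Mrps17, and without library II it was 0.209 to 0.221. For Mrps17 it was 0.0650 and 0.0617 without day 7 library III or IV.

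Day 7 was also compared with day 0, the comparison that spans the culture and shares its day 7 libraries with the one above. The median log2 fold change of the members was 1.64, beside -1.14 for all tested genes, and 70 members lay above 0. By limma 45 members rose, beside 11.3% of tested genes, and 0 fell (0 at an unadjusted p under 0.05), beside 29.3%. Both day 7 libraries were above both day 0 libraries in 59 members, beside 19.6%, and below them in 1, Mrpl39, beside 50.8%. The calls rested on few day 0 reads. The median called member had 5 reads pooled over both day 0 libraries, and 11 of the 45 had 3 or fewer. Thinned to the smallest library's reads, 16 members were called, 24 with voom, 25 when day 7 library III was left out and 17 when IV was.

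By log2 fold change of log2(RPKM + 1), the largest called changes over the whole culture were those of Mrpl22, Mrps36, Mrpl54, Mrpl34, Mrps33 and Mrps24. Mrpl54, found in mitochondria alone, measured 10.6 and 0 RPKM on day 0, 15.0 and 14.6 RPKM on day 4, and 95.4 and 115 RPKM on day 7. Its ratio of pooled levels from day 0 to day 7 was 14.6 (exact 95% interval 4.02 to 120, limma adjusted p = 0.00864). Mrpl34, a small core protein of the large subunit, measured 14.4 and 0 RPKM on day 0, 21.5 and 16.9 RPKM on day 4, and 115 and 119 RPKM on day 7 (ratio 12.1, 4.13 to 58.7, adjusted p = 0.0122). Mrps24, homologue of a bacterial protein at the mRNA entry, measured 12.3 and 0 RPKM on day 0, 18.9 and 12.6 RPKM on day 4, and 55.3 and 79.5 RPKM on day 7 (ratio 7.88, 3.07 to 28.9, adjusted p = 0.0176). Mrps36 and Mrps33 had ratios of 16.02 (5.48 to 77.7, adjusted p = 0.00795) and 17.5 (7.497 to 53.9, adjusted p = 0.000741). In Mrps36, Mrpl54, Mrpl34 and Mrps24, day 0 library III held 0 reads, so library II gave all their day 0 reads. The 0 entered the day 0 mean behind their log2 fold changes of 5.08, 4.96, 4.91 and 4.21. Fitted without library III these were 3.33, 3.19, 2.94 and 2.34, below the 3.78 of Mrps33 in that fit. Without day 4 library II adjusted p was 0.0557 to 0.0930 for these 4, without day 4 library I it was 0.0624 for Mrpl34 and 0.0795 for Mrps24, and without day 7 library IV it was 0.0632 for Mrps24. By ratio of pooled levels Mrpl41, picked after its values were seen, was above the ratios given here at 26.5 (exact 95% interval 4.75 to 1047), on 1 day 0 read. Mrpl43 and Mrpl24, picked in the same way, had ratios of 17.4 and 16.6.

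The 2 members with the fewest reads in all, Mrpl47 and Mrps35, were no higher on day 7 than on day 0. Most of their reads came from day 7, 271 and 298, beside 7 and 8 on day 0 and 20 and 23 on day 4. A choice by total reads therefore favours members that are low on day 7. Mrpl47, at the tunnel exit, measured 21.3 and 7.27 RPKM on day 0, 5.04 and 4.17 RPKM on day 4, and 11.0 and 12.1 RPKM on day 7. Mrps35, a small subunit protein found in mitochondria alone, measured 20.3 and 5.94 RPKM on day 0, 7.55 and 2.92 RPKM on day 4, and 11.6 and 8.39 RPKM on day 7. In both genes the day 7 values lay between the 2 day 0 values, which rested on at most 7 reads in a library. Their log2 fold changes from day 0 to day 7 were -0.11 ± 0.53 (limma adjusted p = 0.873) and -0.16 ± 0.64 (adjusted p = 0.847).

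Other genes of the mitochondrial ribosome and its translation system were followed in 5 lists. The 6 ribosomal proteins with other symbols had a median log2 fold change of 2.03 from day 4 to day 7, beside -0.81 for all tested genes. Of these 6, 1 rose and 0 fell, beside 5.85% and 6.75% of all tested genes. The one was Gadd45gip1, a large subunit protein near the tunnel exit, at 4.22 and 7.93 RPKM on day 4 and 29.8 and 45.8 RPKM on day 7 (2.48 ± 0.45, limma adjusted p = 0.0112). Aurkaip1, a small subunit protein, went from 76.6 and 84.1 to 258 and 332 RPKM but did not pass the test at that step (1.85 ± 1.39, adjusted p = 0.363), and its day 0 libraries held 43.0 and 0 RPKM. Ptcd3, a pentatricopeptide repeat protein of the small subunit, measured 8.66 and 13.6 RPKM on day 0, 15.4 and 9.83 RPKM on day 4, and 4.20 and 3.32 RPKM on day 7. It fell by 1.33 on the log2 scale from day 0 to day 7 (limma adjusted p = 0.0469), while 4 of the other 5 rose over that span. Of all tested genes 11.3% rose and 29.3% fell from day 0 to day 7. Of those 4, Aurkaip1, Chchd1 and Ict1 had 0 reads in day 0 library III, and Gadd45gip1 had 3 and 2 reads on day 0.

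The 22 genes for assembly and ribosomal RNA modification did not move one way. From day 4 to day 7 1 rose and 1 fell, beside 5.85% and 6.75% of all tested genes, with a median log2 fold change of -0.22, beside -0.81 for those. Malsu1, which keeps the large subunit from joining too early, measured 12.1 and 3.64 RPKM on day 4 and 44.8 and 53.5 RPKM on day 7 (2.68 ± 0.53, limma adjusted p = 0.0144). Rbfa, which acts in small subunit assembly, was highest on day 4, with 23.1 and 28.4 RPKM on day 0, 94.1 and 110 RPKM on day 4, and 28.4 and 34.7 RPKM on day 7. It rose by 1.95 ± 0.36 from day 0 to day 4 (adjusted p = 0.0249), and fell by 1.67 on the log2 scale from day 4 to day 7 (adjusted p = 0.0207). Ybey, a mitochondrial RNA endonuclease, fell from 87.8 ± 19.2 RPKM on day 0 to 5.15 ± 5.09 RPKM on day 4 (-4.14 on the log2 scale, adjusted p = 0.0151).

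In the lists of translation factors, mitochondrial DNA upkeep and nuclear transcription factors at most 1 gene passed the test in either direction from day 4 to day 7, when 5.85% of all tested genes rose and 6.75% fell with a median of -0.81. Of 14 translation factors 1 rose from day 4 to day 7 and 0 fell (median 0.16). It was Tufm, which brings aminoacyl-tRNA to the mitochondrial ribosome, at 10.6 and 8.91 RPKM on day 4 and 32.1 and 47.6 RPKM on day 7 (1.90 ± 0.38, limma adjusted p = 0.0156). Of 10 genes for mitochondrial DNA upkeep and transcription 0 rose and 1 fell (median 0.20). It was Polg, the mitochondrial DNA polymerase, at 24.8 and 36.0 RPKM on day 4 and 3.65 and 5.30 RPKM on day 7 (-2.51 ± 0.41, adjusted p = 0.00704). Of 10 transcription factors and coactivators of mitochondrial genes 0 rose and 1 fell (median -0.78). It was Nrf1, at 11.5 and 11.8 RPKM on day 4 and 0.975 and 2.05 RPKM on day 7 (-2.37 ± 0.52, adjusted p = 0.0219). Over the whole culture Nrf1, Gabpb2, a subunit of GABP, and Pprc1, a coactivator of this system, fell, 3 of the 10, beside 29.3% of all tested genes. Yy1 was at 17.3 and 27.0 RPKM on day 4 and 30.002 and 33.3 RPKM on day 7 (0.53 ± 0.39, adjusted p = 0.358). The differences between these lists and the members were not tested.

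**Figure D4:**
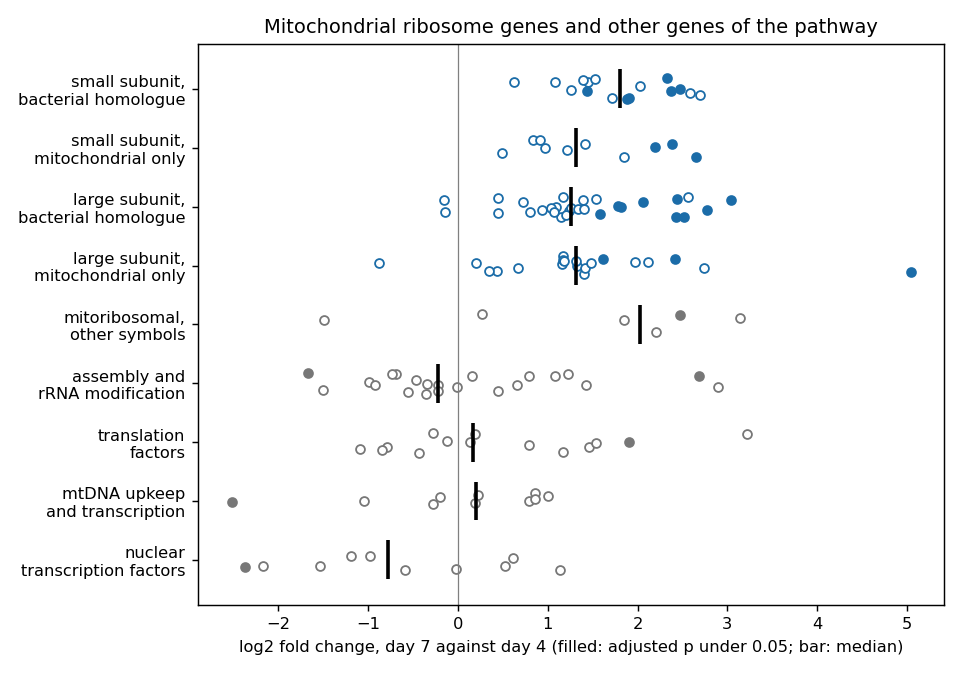
Log2 fold change from day 4 to day 7 of each gene in the 4 member classes (blue) and the 5 lists of other genes (grey), filled where the adjusted p was under 0.05, with a bar at each median. The member classes have medians of 1.26 to 1.80, ribosomal proteins with other symbols 2.03, and the remaining lists -0.78 to 0.20, with Mrps36 left out. Mrpl55, which has a bacterial homologue, is drawn with the large subunit proteins found in mitochondria alone.

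Members were also grouped by these promoter letters. The 41 members with an NRF1, ETS or GABP, or YY1 match had a median log2 fold change of 1.42 from day 4 to day 7, and 16 of them rose. The 26 with none of the 3 also had a median of 1.42, and 6 rose. The difference between them was not tested. By motif, 13 of the 24 genes with the ETS or GABP letters rose (median 1.83), 4 of the 13 with the NRF1 letters (median 1.14) and 2 of the 12 with the YY1 letters (median 1.36). These counts stand beside 22 of all 76 members and 5.85% of all tested genes, and differences by motif were not tested.

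Many members share their start region with a neighbouring gene read in the opposite direction. By RefSeq starts 23 of 67 member genes (34.3%) had such a divergent partner whose window overlapped theirs, beside 1998 of 15017 tested genes (13.3%). The starts lay 8 to 332 bases apart. In the 19 pairs whose partner was tested and no member, the members' median log2 fold change from day 4 to day 7 was 1.24. The partners' was 0.16, beside -0.81 for all tested genes. All 19 of these members and 11 of the partners lay above 0, 5 members rose, and among the partners 1 rose and 1 fell. Of all tested genes 5.85% rose and 6.75% fell. The member lay above its partner in 15 of the 19 pairs. Without strand information in the sources used here, reads of overlapping pairs cannot be told apart.

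Single pairs ranged from shared to opposite courses. Mrps12, whose promoter is shown above, starts 147 bases from Sars2, the mitochondrial seryl-tRNA synthetase gene, which measured 3.25 and 3.46 RPKM on day 4 and 2.95 and 5.24 RPKM on day 7 (0.19 ± 0.59, limma adjusted p = 0.808). Mrpl57 and Ska3, a gene of the kinetochore, start 76 bases apart. Ska3 fell by 2.82 on the log2 scale (adjusted p = 0.00699), from 7.93 and 9.62 to 0.541 and 0.228 RPKM, while Mrpl57 went from 10.7 and 8.83 to 25.2 and 30.3 RPKM (1.42 ± 0.44, adjusted p = 0.0722). Mrpl47 and Ndufb5, a subunit gene of respiratory complex I, start 308 bases apart, and Ndufb5 rose from 19.1 and 16.9 to 177 and 199 RPKM (3.32 ± 0.42, adjusted p = 0.00218). Mrps11 and Mrpl46 are both members and start 42 bases apart. They measured 3.16 and 6.06 RPKM and 7.83 and 5.55 RPKM on day 4, and 11.3 and 16.8 RPKM and 18.2 and 20.1 RPKM on day 7, with similar log2 fold changes of 1.45 ± 0.63 and 1.40 ± 0.41 that did not pass the test (adjusted p = 0.169 and 0.0627). The pairs described were picked after their values were seen.

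**Figure D5:**
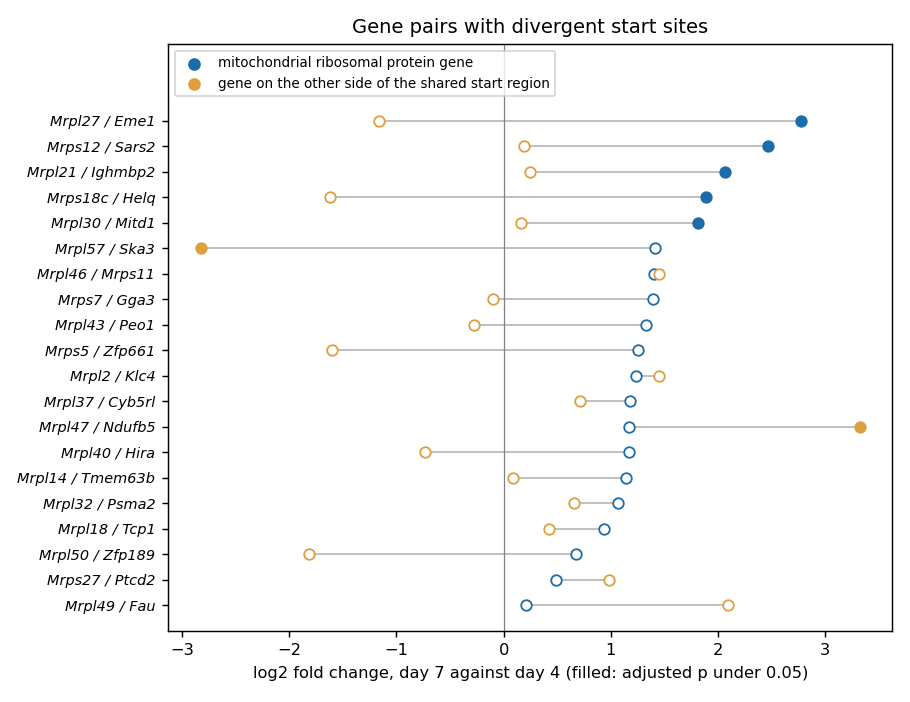
Log2 fold change from day 4 to day 7 of members (blue) and of the genes on the other side of their start region (orange), 1 pair per row, filled where the adjusted p was under 0.05. The blue points are all above 0 and the orange points lie on both sides of it, and in the row of Mrpl46 the orange point is Mrps11, itself a member.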

How the data were processed

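The deposited table holds RPKM values made by the authors, which scale reads to gene length and library size, with a gene length for each symbol, per the file headers. The submitters' processing notes name TopHat2 2.0.13, SAMtools 1.1 and the mm9 build but no role for them. How reads were counted, on which annotation and with which strand setting is not given in the sources used here, so antisense overlaps and near-identical copies stay uncertain. RNA was total RNA and libraries came from SMARTer Ultra Low Input and NexteraXT kits, per the labels' protocols.

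RPKM values converted back to whole reads to within 6.88e-05 reads. Tests used limma 3.58.1 in R 4.3.3 on log2(RPKM + 1), for the 19279 genes with at least 1 RPKM in at least 2 of 6 libraries, all 76 members among them. A single fit of 3 group means over the 6 libraries (3 residual degrees of freedom, eBayes with trend) gave 3 comparisons, two-sided, with Benjamini-Hochberg adjustment over all tested genes and calls under 0.05. No exact permutation of 2 against 2 libraries can reach 0.05. Ratios of pooled reads have exact binomial intervals at 95%, and a group at 0 is set to 3 reads.

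The members and gene lists were chosen with earlier results of these data known. Members named with values in every library are the 6 highest by mean, up to 6 called with the largest change per comparison, those with a set role (Mrps18a to Mrps18c, Mrpl12, Mrps12, Mrpl11, Mrps36, Mrps30) and the 2 with fewest reads. Members of a list were named by level or smallest adjusted p, others as stated. Promoter windows came from RefSeq (GRCm38.p6), a build other than that of the table, matched by symbol. Alternatives were other pseudocounts, filters and scalings, voom on recovered reads, thinning, no trend, 2 groups alone in the fit and each library left out. Tables were handled with pandas 2.3.3 and SciPy 1.17.1, and plots with matplotlib 3.10.9 in Python 3.11.15.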

Additional observations from a re-analysis of the deposited data

How the results depend on the processing

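No result changed its call to the opposite direction under 16 alternatives or the later one below, and 0 members were called lower for day 7 against day 4 or day 0 under any of them. For day 4 against day 0, members called higher numbered 1 without a filter, 5 with at least 5 RPKM in 2 libraries, 0 with voom (2 at an unadjusted p under 0.05), 1 with thinning, 1 without the trend and 1 with 2 groups in the fit, and members called lower 1 with the 5 RPKM filter and 4 with thinning. For day 7 against day 4, members called higher numbered 34 with the 5 RPKM filter, 4 with quantile normalization, 50 with voom, 8 with thinning, 12 without the trend and 47 with 2 groups in the fit. For day 7 against day 0 they numbered 21 with quantile normalization, 24 with voom and 16 with thinning. Leaving out each library in turn gave 0 to 21 called higher and 0 to 5 called lower for day 4 against day 0, 0 to 54 higher for day 7 against day 4, and 17 to 53 higher for day 7 against day 0. The lone library left in a group is then assumed to vary like the other groups. Where thinning or fewer samples leave less data, the alternative's own construction differs, and otherwise the cause was not tested. For no alternative, here or above, is the share of all tested genes called set beside the member count. A changed count may therefore hold for the whole fit and not for the members alone.

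The median log2 fold change of the members stayed between 1.05 and 1.85 for day 7 against day 4 and between 1.34 and 2.01 for day 7 against day 0 under those 16. For day 4 against day 0 it ranged from -0.18 (voom) to 0.40 (quantile normalization), so its sign was not stable. Subtracting the pooled receptor gene level from each library, with values below 0 set to 0, was an alternative chosen after seeing the data. It gave medians of 1.305 from day 0 to day 4, 1.99 from day 4 to day 7 and 3.29 over the whole culture, beside 0.19, 0 and 0.27 for all tested genes. It called 13, 17 and 43 members higher. The level taken off was larger on the earlier day of each comparison, so the step itself can raise these changes.

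No paired analysis was possible because days 0 and 4 share only replicate number II, days 0 and 7 only III, and days 4 and 7 none. Depth limits day 0 most, where 18 and 48 of the 76 members had fewer than 3 reads.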
